A study of Ovis aries with 15 samples.

Results

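The genes described here are those that let liver cells see and answer cortisol: both corticosteroid receptors (NR3C1 and NR3C2), both 11-beta-hydroxysteroid dehydrogenases (HSD11B1 and HSD11B2), the corticosteroid-binding globulin gene SERPINA6 and 5 direct receptor targets (FKBP5, ZBTB16, KLF9, TSC22D3 and DUSP1). They were chosen by name, 10 in all, and 9 of them were read from a table of 31411 genes. SERPINA6 is not analysed here. Of these 9 genes, 8 passed the filter on low counts, and HSD11B2 did not. The tissue was the liver of sheep fetuses (Ovis aries) at gestational day (GD) 100 (4 libraries), GD124 (5 libraries) and GD144 (6 libraries), stages that lie 24 and 20 days apart. Poly(A) RNA of whole tissue was sequenced from both ends. The labels give gestational stage as the only difference and name no treatment or breed. They do not tie each library to its own fetus, so the p-values rest on a spread between samples that may be technical. The sample codes carry different letters at each stage, so a cohort or batch that follows them cannot be told apart from the stage.

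Cortisol acts through the glucocorticoid receptor, a transcription factor that is held in the cytoplasm by heat shock protein chaperones until it binds the hormone and then moves to the nucleus. In the liver HSD11B1 turns inactive cortisone into cortisol inside the cell, with reducing power made in the endoplasmic reticulum by hexose-6-phosphate dehydrogenase (H6PD), and HSD11B2 runs the opposite reaction in tissues such as kidney and placenta. In fetal sheep the cortisol concentration of plasma is known to climb towards term, and the hormone is known for preparing liver, lung and gut for birth.

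The 15 libraries held 24215612 to 38247295 estimated counts. Values are given as CPM, counts scaled to 1000000 per library, after scaling by the trimmed mean of M values (TMM), and 3 counts, used as the detection floor, came to 0.0796 to 0.128 CPM depending on the library, which covers counting error only. All 14 hepatocyte markers read had counts in every library. GD100 replicates 2 to 4 stood apart in counting, with fractional values in 10.6 to 10.8% of genes, and GD144 replicate 3 scored 19.3 on the first principal component where the rest of GD144 scored 54.6 to 76 and GD124 scored -30.4 to -11.5. In bulk tissue fewer cells of a type and less RNA per cell cannot be told apart. Summed over 14 erythroid marker genes, GD100 libraries had 4819 to 12330 CPM, GD124 libraries 1932 to 3919 CPM and GD144 libraries 128 to 957 CPM. Of these 14 genes 0 rose and 4 fell at GD124 against GD100, and 0 rose and 14 fell at GD144 against GD124. The hepatocyte marker sum was 62230 to 187700 CPM in GD100 libraries, 237600 to 277500 CPM in GD124 libraries and 190100 to 235100 CPM in GD144 libraries. Of these 14 genes 11 rose and 0 fell at GD124 against GD100, while 2 rose and 1 fell at GD144 against GD124. Of all genes tested, 16.6% rose and 17.4% fell in the first comparison, and 12.1% rose and 15.4% fell in the second. What the erythroid and hepatocyte markers contribute to the changes below was not tested.

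Of the 8 tested cortisol genes, 5 rose in both intervals (NR3C1, HSD11B1, KLF9, TSC22D3 and DUSP1), ZBTB16 rose late, NR3C2 rose early and FKBP5 fell and then rose. At GD124 against GD100, 6 of the 8 tested genes were higher and 1 was lower at an edgeR adjusted p under 0.05; of all 16977 genes tested, 34% were called, 16.6% higher and 17.4% lower. At GD144 against GD124, 7 of the 8 were higher and 0 were lower, beside 27.5% of all genes called, 12.1% higher and 15.4% lower. The median log2 fold change of the 8 genes was 0.90 in the earlier interval and 1.95 in the later one, where all tested genes had medians of 0.015 and -0.0098. Over the whole span from GD100 to GD144, 7 were higher and 0 lower, where 55% of all genes were called, 27.1% higher and 27.9% lower. Every library of the later stage lay above every library of the earlier stage for 2 of the 8 genes at GD124 against GD100 (11.6% of all genes), for 6 at GD144 against GD124 (7.81%) and for 7 at GD144 against GD100 (19.2%). The intervals share the GD124 libraries, and the whole span shares libraries with both. The early changes depended on GD100 and on the scaling. With GD100 reduced to replicate 1, only TSC22D3 of the 8 genes was still called early, NR3C1 having an edgeR adjusted p of 0.207 and NR3C2 of 0.103. Scaling to the hepatocyte markers was an alternative added after the data were seen. It put the early log2 changes of NR3C1, KLF9, TSC22D3 and DUSP1 at -0.84, -0.14, -0.29 and -0.88, beside a median of -1.45 over all genes. NR3C1 and DUSP1 were then called lower (edgeR adjusted p = 0.00361 and 0.0356), as was ZBTB16 (log2 -1.43, edgeR adjusted p = 0.00125). In that scaling NR3C2 (log2 0.42, edgeR adjusted p = 0.5) and HSD11B1 (log2 0.016, edgeR adjusted p = 0.958) were no longer called early. Over the span NR3C1 (log2 -0.076, edgeR adjusted p = 0.779) and NR3C2 (log2 0.88, edgeR adjusted p = 0.168) were then not called, beside a median of -1.17 over all genes.

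**Figure D1:**
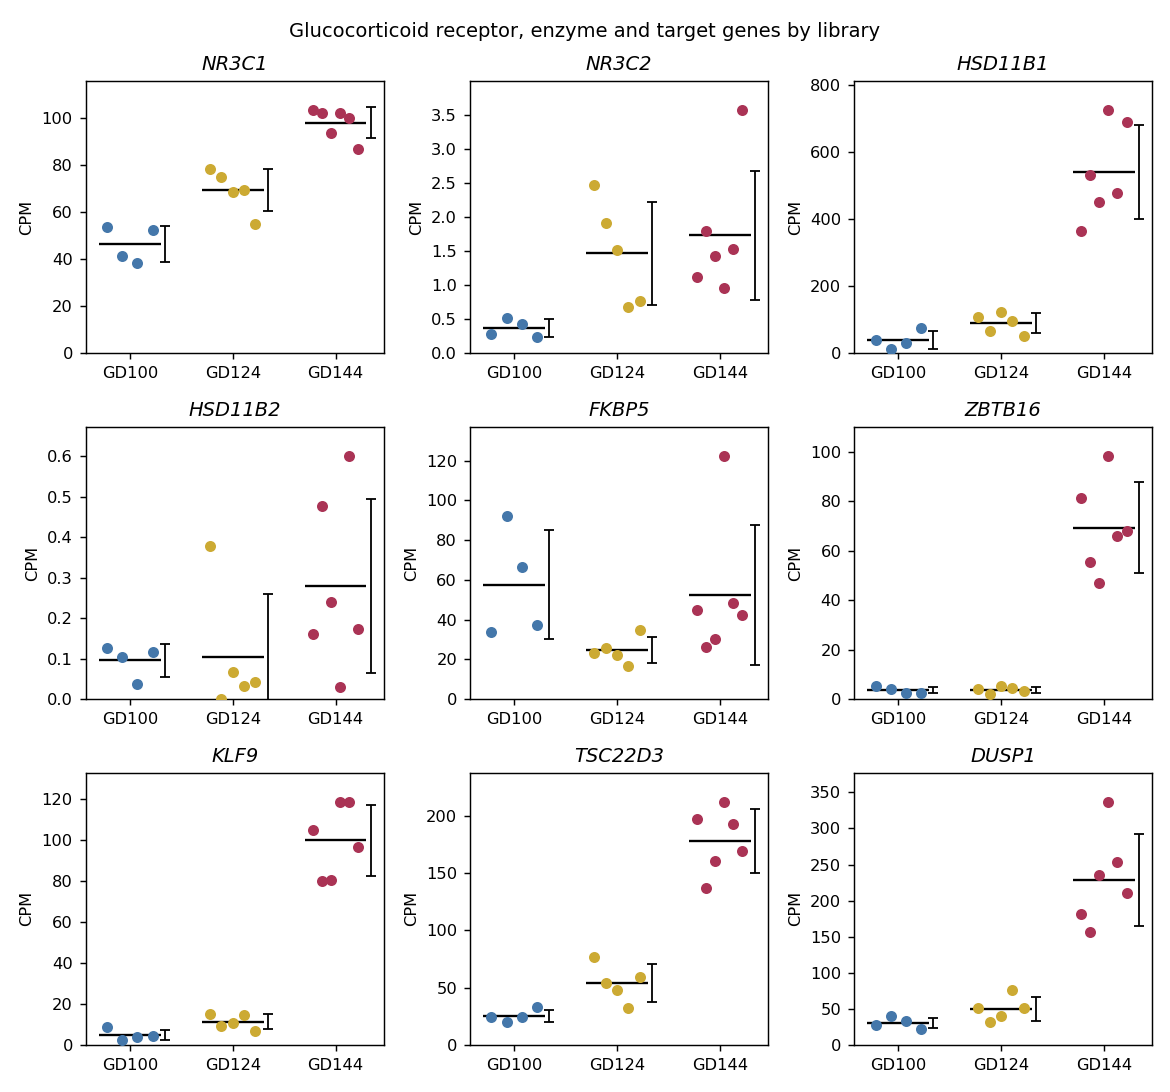
CPM (linear axes from 0) of the 9 genes in each library, with GD100, GD124 and GD144 from left to right; black lines are stage means and the bars beside them ± SD (n = 4, 5 and 6; the GD124 bar of HSD11B2 is clipped at 0). ZBTB16 stayed at 2.2 to 5.27 CPM until GD124 and stood at 47 to 98.3 CPM at GD144, while FKBP5 was lowest at GD124.

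The glucocorticoid receptor gene NR3C1 rose in both intervals. Its level was 53.8, 41.4, 38.4 and 52.4 CPM in the 4 GD100 libraries. In the GD124 libraries it was 78.4, 74.9, 68.7, 69.2 and 55.1 CPM, and at GD144 it ran from 87 to 103 CPM with a median of 101 CPM. No library of a later stage overlapped one of an earlier stage, and the lowest GD124 library was 1.02-fold the highest GD100 library. NR3C1 averaged 69.3 ± 8.89 CPM at GD124 and 46.5 ± 7.75 CPM at GD100 (SD, n = 5 and 4), higher by 0.57 ± 0.13 on the log2 scale (SE, edgeR adjusted p = 0.00418). Its mean at GD144 was 98 ± 6.43 CPM (SD, n = 6), higher than at GD124 by 0.50 ± 0.12 on the log2 scale (SE, edgeR adjusted p = 0.00553). The later change minus the earlier change was -0.07 on the log2 scale, with a 95% interval of -0.53 to 0.39. Scaled to the hepatocyte markers, NR3C1 was called lower early (log2 -0.84, edgeR adjusted p = 0.00361), where the median of all genes was -1.45. It was then not called over the span (log2 -0.076, edgeR adjusted p = 0.779), where that median was -1.17. At GD144 its libraries differed by no more than 1.19-fold, the narrowest spread among the 8 tested genes.

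NR3C2, the mineralocorticoid receptor gene, whose receptor binds cortisol as well as aldosterone, was read from few counts and rose early. GD100 libraries had 6 to 15 counts, GD124 libraries 18 to 78 and GD144 libraries 33 to 103. Both genes that overlap it in the annotation, LOC121817000 and LOC121817001, reached at most 3 and 5 counts. The level was 0.284, 0.524, 0.437 and 0.235 CPM in the GD100 libraries, and 2.46, 1.91, 1.51, 0.685 and 0.768 CPM in the GD124 libraries. All GD124 libraries lay above all GD100 libraries, and the log2 fold change was 1.98 ± 0.50 (SE, edgeR adjusted p = 0.00657). At GD144 the level ran from 0.951 to 3.56 CPM with a median of 1.48 CPM, overlapping GD124, and the log2 fold change from GD124 was 0.23 with a 95% interval of -0.63 to 1.1 (edgeR adjusted p = 0.713). The highest GD144 value belonged to replicate 6, and without that library the change was -0.11. Within a library, the log2 ratio of NR3C1 to NR3C2, counted from its median at GD100, was -0.71 to 0.79 in GD100 libraries, -2.02 to -0.35 in GD124 libraries and -2.4 to -0.27 in GD144 libraries, so that both later ranges overlapped that of GD100.

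HSD11B1, which regenerates cortisol from cortisone, had the third largest fold of these genes between GD124 and GD144. Its level was 38.7, 13.6, 30.8 and 74.6 CPM in the GD100 libraries and 108, 67.5, 123, 97.5 and 51.7 CPM in the GD124 libraries. The 2 stages overlapped, and the log2 fold change of 1.19 ± 0.38 had an edgeR adjusted p of 0.0266. That call was lost without GD100 replicate 1, 2 or 3 or GD124 replicate 1 or 3 (adjusted p = 0.0537 to 0.0828) and in a fit of the 2 stages alone (adjusted p = 0.051). At GD144 the level was 366, 529.6, 449.6, 724, 478 and 688 CPM, so that the lowest GD144 library stood 2.96-fold above the highest GD124 library. HSD11B1 averaged 539 ± 140.3 CPM at GD144 and 89.7 ± 29.5 CPM at GD124 (SD, n = 6 and 5), higher by 2.59 ± 0.37 on the log2 scale (SE, edgeR adjusted p = 0.000122). The gene overlaps LAMB3 in the annotation used for names and no source states a strand setting for the counts. LAMB3 stood at 3.71 ± 0.998 CPM at GD100, 2.55 ± 0.609 CPM at GD124 and 3.28 ± 0.569 CPM at GD144 (SD, n = 4, 5 and 6).

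At GD100 the libraries followed 1 order in HSD11B1 and in the summed hepatocyte markers, highest in replicate 4, then 1, 3 and 2. Divided by that sum in the same library, HSD11B1 was 342 ± 87.7 parts in 1000000 of the marker sum at GD100, 346 ± 102 at GD124 and 2484 ± 568 at GD144 (SD, n = 4, 5 and 6). The GD100 and GD124 ranges overlapped, and the ratio was higher in all 6 GD144 libraries, at 1923 to 3416, than in any GD124 library, at 218 to 445. KLF9 had 48.2 ± 21.8, 43.6 ± 13.9 and 466 ± 92.1 on that scale at GD100, GD124 and GD144. This ratio was added after the data were seen, and ALB alone makes up 22.9 to 33.5% of the marker sum.

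HSD11B2, the enzyme that inactivates cortisol, was at the edge of detection. It had 4, 3, 1 and 3 counts in the GD100 libraries, 12, 0, 2, 1 and 1 counts at GD124 and 5, 13, 9, 1, 20 and 5 counts at GD144. The highest level was 0.6 CPM, in GD144 replicate 5, and 8 of the 15 libraries had 3 counts or fewer. The gene was therefore not tested and no fold is given. It overlaps ZDHHC1 in the annotation, which reached at most 47 counts. Markers of kidney and placental epithelium, other sites of this enzyme, summed over 10 genes to 0.41 to 3.35 CPM in GD100 libraries, 0.144 to 1.02 CPM in GD124 libraries and 0.147 to 0.849 CPM in GD144 libraries. The highest count of any of these markers in a library was 49, in CALB1.

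Among the receptor targets, ZBTB16 and KLF9 showed the steepest late rises. ZBTB16 encodes a zinc finger repressor that glucocorticoids induce in many cell types. Its level was 5.27, 4.19, 2.55 and 2.58 CPM in the GD100 libraries and 3.95, 2.2, 5.27, 4.47 and 3.28 CPM in the GD124 libraries. These stages overlapped throughout, with a log2 fold change of 0.07 and a 95% interval of -0.52 to 0.66 (edgeR adjusted p = 0.871). Scaled by library totals only, the change was -0.11. Scaled to the hepatocyte markers it was -1.43 and called lower (edgeR adjusted p = 0.00125), where the median of all genes was -1.45. At GD144 the libraries stood at 81.4, 55.6, 47, 98.3, 65.9 and 68 CPM, the lowest of them 8.92-fold above the highest GD124 library. The log2 fold change from GD124 was 4.17 ± 0.28 (SE, edgeR adjusted p = 1.86e-07), the fifth smallest p among all genes tested. The later change exceeded the earlier one by 4.10 ± 0.49 on the log2 scale (SE, edgeR adjusted p = 0.0005), in a test that called 5.9% of all genes, 2.15% higher and 3.75% lower.

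KLF9, a Krüppel-like factor gene that responds to both cortisol and thyroid hormone, rose in both intervals. It stood at 8.56, 2.62, 3.97 and 4.26 CPM in the GD100 libraries and 15.3, 9.36, 10.5, 14.5 and 6.61 CPM in the GD124 libraries, with only GD100 replicate 1 inside the GD124 range. The log2 fold change was 1.21 ± 0.30 (SE, edgeR adjusted p = 0.00651), and with GD100 reduced to replicate 1 it was 0.39 and not called (adjusted p = 0.486). At GD144 it stood at 105, 80.2, 80.4, 119, 118 and 96.8 CPM, and the lowest of these was 5.26-fold above the highest GD124 library. This was higher by 3.15 ± 0.29 on the log2 scale (SE, edgeR adjusted p = 4.02e-06). The later change exceeded the earlier one by 1.94 ± 0.50 on the log2 scale (SE, edgeR adjusted p = 0.0327), a call lost without GD124 replicate 2, 3 or 5 (adjusted p = 0.071 to 0.09).

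TSC22D3, which encodes the anti-inflammatory protein GILZ, rose in both intervals. It stood at 24.2, 20.2, 24.6 and 32.9 CPM at GD100 and 77, 53.8, 48.2, 32.3 and 59.2 CPM at GD124, where only GD124 replicate 4 fell within the GD100 range. GD124 was higher by 1.09 ± 0.22 on the log2 scale (SE, edgeR adjusted p = 0.00154). At GD144 its level was 197, 137, 160.3, 212, 193 and 169 CPM, all above GD124, higher by 1.72 ± 0.20 on the log2 scale (SE, edgeR adjusted p = 2.33e-05). The later change minus the earlier change was 0.63 with a 95% interval of -0.11 to 1.37 (edgeR adjusted p = 0.29).

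DUSP1 encodes a phosphatase that switches off MAP kinases and is induced by glucocorticoids and by stress. It stood at 27.9, 39.7, 32.6 and 22.6 CPM at GD100 and at 51.5, 31.8, 40.1, 76.4 and 51.4 CPM at GD124, in overlapping ranges. The log2 fold change of 0.71 ± 0.26 had an edgeR adjusted p of 0.0418 and was not called with relative log expression factors (adjusted p = 0.0567), with total counts alone (0.141), or without GD100 replicate 1, 3 or 4 or GD124 replicate 1, 4 or 5 (0.0617 to 0.122). At GD144 the level was 181, 156, 236, 337, 254 and 211 CPM, all above GD124, and the log2 fold change was 2.19 ± 0.24 (SE, edgeR adjusted p = 1.76e-05). Handling of tissue can raise immediate early and heat shock genes. Summed over 27 of them, the level was 1126 to 2311 CPM at GD144 and 1133 to 2026 CPM at GD124, in overlapping ranges. Of these 27 genes 9 rose and 0 fell, beside 12.1% and 15.4% of all genes. In GD144 replicate 4, where DUSP1 was highest, that sum was 1286 CPM. Their part in the DUSP1 values was not tested.

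**Figure D2:**
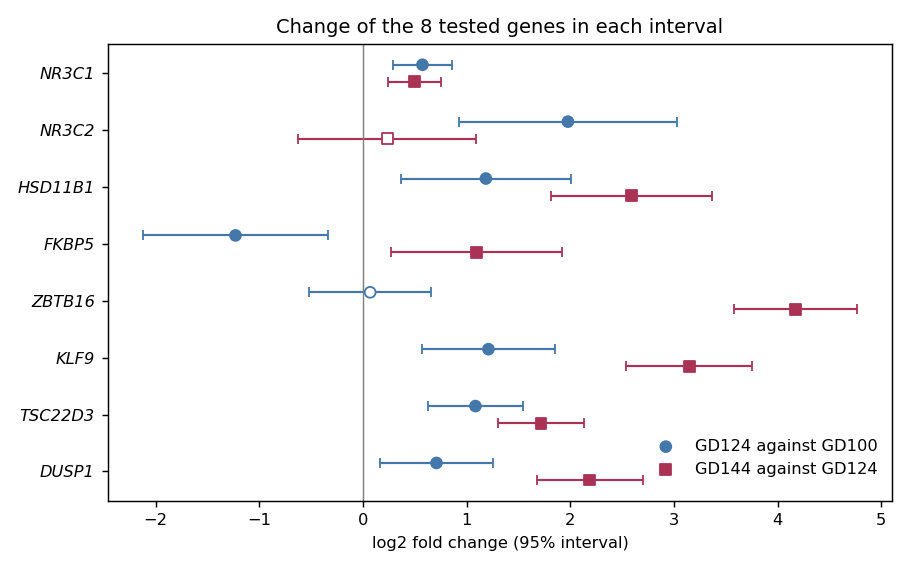
Log2 fold change with its 95% interval for the 8 tested genes in the earlier interval (blue circles, GD124 against GD100) and the later interval (red squares, GD144 against GD124); open symbols did not pass the adjusted p threshold of 0.05. ZBTB16 passed the threshold in the later interval alone (0.07 and 4.17), NR3C2 did so in the earlier one alone (1.98 and 0.23), and FKBP5 passed it with opposite signs (-1.23 and 1.10).

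FKBP5, a co-chaperone that lowers the affinity of the receptor for its hormone and is one of the most used readouts of glucocorticoid action, was lowest at GD124. It stood at 33.9, 92.3, 66.5 and 37.2 CPM in the GD100 libraries and at 23.2, 25.8, 22, 16.9 and 34.8 CPM in the GD124 libraries. The stages overlapped in a single pair, GD124 replicate 5 above GD100 replicate 1. FKBP5 fell by 1.23 ± 0.42 on the log2 scale at GD124 (SE, edgeR adjusted p = 0.034), and the call was lost without GD100 replicate 2 or 3 or GD124 replicate 1, 2, 3 or 4 (adjusted p = 0.0573 to 0.125). At GD144 it stood at 44.8, 26.2, 30.4, 122, 48.4 and 42.2 CPM, with replicate 4 far above the rest. The log2 fold change from GD124 was 1.10 ± 0.39 (SE, edgeR adjusted p = 0.0466). That call was lost without GD144 replicate 4, where the change was 0.69 (adjusted p = 0.0884), and also without GD124 replicate 1, 2, 3 or 4 or GD144 replicate 5 or 6 (adjusted p = 0.0551 to 0.103). Over the whole span FKBP5 averaged 52.4 ± 35.3 CPM at GD144 and 57.5 ± 27.5 CPM at GD100 (SD, n = 6 and 4), with a log2 fold change of -0.13 and a 95% interval of -0.98 to 0.72 (edgeR adjusted p = 0.799). Scaled to the hepatocyte markers it was called lower over the span (log2 -1.55, edgeR adjusted p = 0.0146), where the median of all genes was -1.17.

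FKBP5 and the erythroid markers were high in the same libraries at the earlier stages. GD100 replicates 2 and 3, with the highest FKBP5, had summed erythroid markers of 12328 and 9469 CPM, against 5530 and 4819 CPM in replicates 1 and 4. GD124 replicate 5 had the highest FKBP5 and the highest erythroid sum of its stage (3919 CPM), and GD124 replicate 4 had the lowest of both (1932 CPM). At GD144 the erythroid sum was highest in replicate 3 (957 CPM), where FKBP5 stood at 30.4 CPM, and was 182 CPM in replicate 4, where FKBP5 was highest. Their part in the FKBP5 values was not tested.

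For the 7 genes that were higher at GD144 than at GD100, the share of that log2 rise that lay between GD124 and GD144 was 98.4% for ZBTB16, 75.5% for DUSP1, 72.2% for KLF9, 68.6% for HSD11B1, 61.3% for TSC22D3, 46.6% for NR3C1 and 10.6% for NR3C2. Only ZBTB16 and KLF9 passed the test of the difference between the intervals. HSD11B1 (log2 difference 1.40 ± 0.63, edgeR adjusted p = 0.193), FKBP5 (2.32 ± 0.72, edgeR adjusted p = 0.0716) and DUSP1 (1.48 ± 0.43, edgeR adjusted p = 0.0514) did not, nor did NR3C2 (-1.74 ± 0.74, edgeR adjusted p = 0.168), TSC22D3 or NR3C1. DESeq2 also called FKBP5 (adjusted p = 0.00663) and DUSP1 (adjusted p = 0.00946), and edgeR with relative log expression factors called DUSP1 (adjusted p = 0.0474).

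Within GD144 the libraries differed, and 1 of them was high in most of these genes. Replicate 4 had the highest level of 6 of the 8 tested genes (HSD11B1, FKBP5, ZBTB16, KLF9, TSC22D3 and DUSP1) and the lowest NR3C2, while it had the highest level of 21.7% of all tested genes. Of 30 other genes known to be induced by glucocorticoids it had the highest level of 11. Replicate 2 had the lowest level of FKBP5, KLF9, TSC22D3 and DUSP1. Replicate 3, which lay nearest to GD124 on the first principal component, was lowest in ZBTB16 only, and its ZBTB16 of 47 CPM was still far from the GD124 maximum of 5.27 CPM. Without replicate 3, 7 of the 8 genes were called higher at GD144 than at GD124, and without replicate 4 it was 6, FKBP5 being lost. The FKBP5 call was also lost without replicate 5 or 6 (edgeR adjusted p = 0.063 and 0.0551). Fits that left out 1 library of any stage called 3724 to 5051 of all genes in this comparison.

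**Figure D3:**
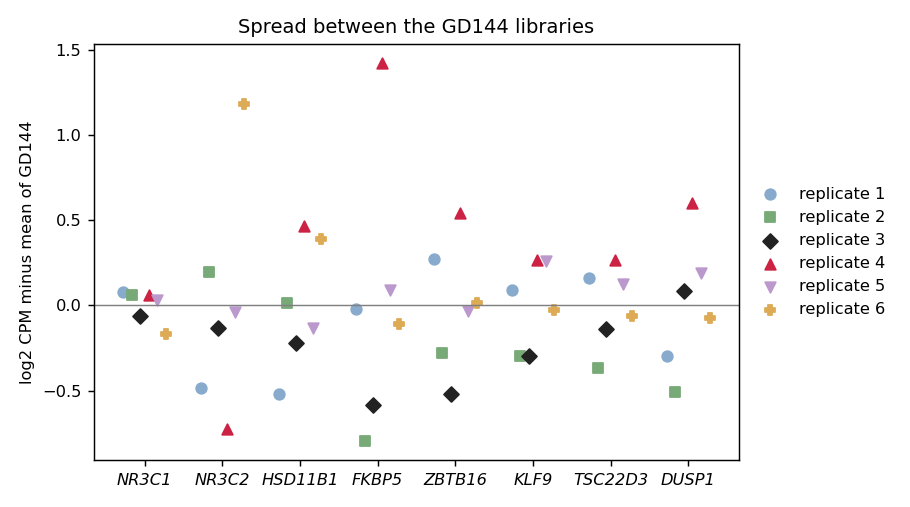
Log2 CPM of each GD144 library minus the mean of the 6 libraries, for the 8 tested genes, with 1 symbol per replicate. Replicate 4 (red triangles) stood 1.43 above the mean in FKBP5 and 0.06 above it in NR3C1, and replicate 6 (orange crosses) was the highest in NR3C2.

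Among other glucocorticoid-induced genes, a list chosen with earlier results of these data known, rises outnumbered falls in both intervals. Of 30 such genes outside the group above, all tested, 16 were higher and 1 was lower at GD124 than at GD100, and 18 were higher and 2 lower at GD144 than at GD124; of all genes 16.6% and 12.1% were higher in these intervals. The early count of 16 was lower with GD100 reduced to replicate 1, a lone library. With scaling to the hepatocyte markers it became 3, where 13287 of all genes were called and 0.557% of those calls were higher. Their median log2 fold change was 0.63 and 0.73 in these intervals. G6PC1, which releases free glucose, and IGFBP1, an insulin-like growth factor binding protein, had the largest early rises (log2 4.98 ± 0.53 and 4.04 ± 0.68, edgeR adjusted p = 9.17e-05 and 0.000755). SDS, a serine-degrading enzyme, and PDK4, which restrains pyruvate oxidation, had the largest late rises (log2 5.62 ± 0.98 and 2.89 ± 0.32, edgeR adjusted p = 0.000805 and 1.92e-05). SDS averaged 149 ± 177 CPM at GD144 and 3.01 ± 1.01 CPM at GD124 (SD, n = 6 and 5). PCK1, the gate enzyme of glucose synthesis, rose in both intervals and was higher by 6.16 ± 0.71 at GD144 than at GD100 on the log2 scale (edgeR adjusted p = 5.96e-06).

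Of these 30 genes 3 rose more in the later interval and 3 more in the earlier one by the test of the difference. Of all genes 2.15% and 3.75% were called in these directions. The count of genes that rose more in the later interval was 1 without GD124 replicate 2, 4 or 5. It was 6 with DESeq2, which called 1816 of all genes. With scaling to the hepatocyte markers it was 23, where 10803 of all genes were called and 99.2% of those calls were higher. PER1, a clock gene, GADD45B, a stress response gene, and NFKBIA, an inhibitor of NF-kappaB, had later changes that exceeded the earlier ones by 1.73 ± 0.27, 2.05 ± 0.54 and 1.64 ± 0.39 on the log2 scale (SE, edgeR adjusted p = 0.0034, 0.0365 and 0.0231). PER1 had 57.1 ± 5.25 CPM at GD144 and 13.9 ± 3.57 CPM at GD124 (SD, n = 6 and 5). G6PC1, IGFBP1 and RGS2, a regulator of G protein signalling, went the other way, with differences of -2.53 ± 0.69, -3.72 ± 0.93 and -2.17 ± 0.45 (edgeR adjusted p = 0.0441, 0.0323 and 0.0138). RGS2 fell by 1.11 ± 0.26 at GD144 against GD124 and STOM, a membrane protein gene, by 0.52 ± 0.13 on the log2 scale (edgeR adjusted p = 0.0043 and 0.00813). FOXO3, a forkhead factor, was the single gene that fell at GD124 (log2 -1.02 ± 0.22, edgeR adjusted p = 0.00266). TAT, the classical cortisol-induced liver enzyme for tyrosine, rose early (log2 1.47 ± 0.23, edgeR adjusted p = 0.000393) and had a log2 change of 0.40 ± 0.20 late (edgeR adjusted p = 0.162). Of these genes PER1, NFKBIA and TAT were picked after their values were seen.

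**Figure D4:**
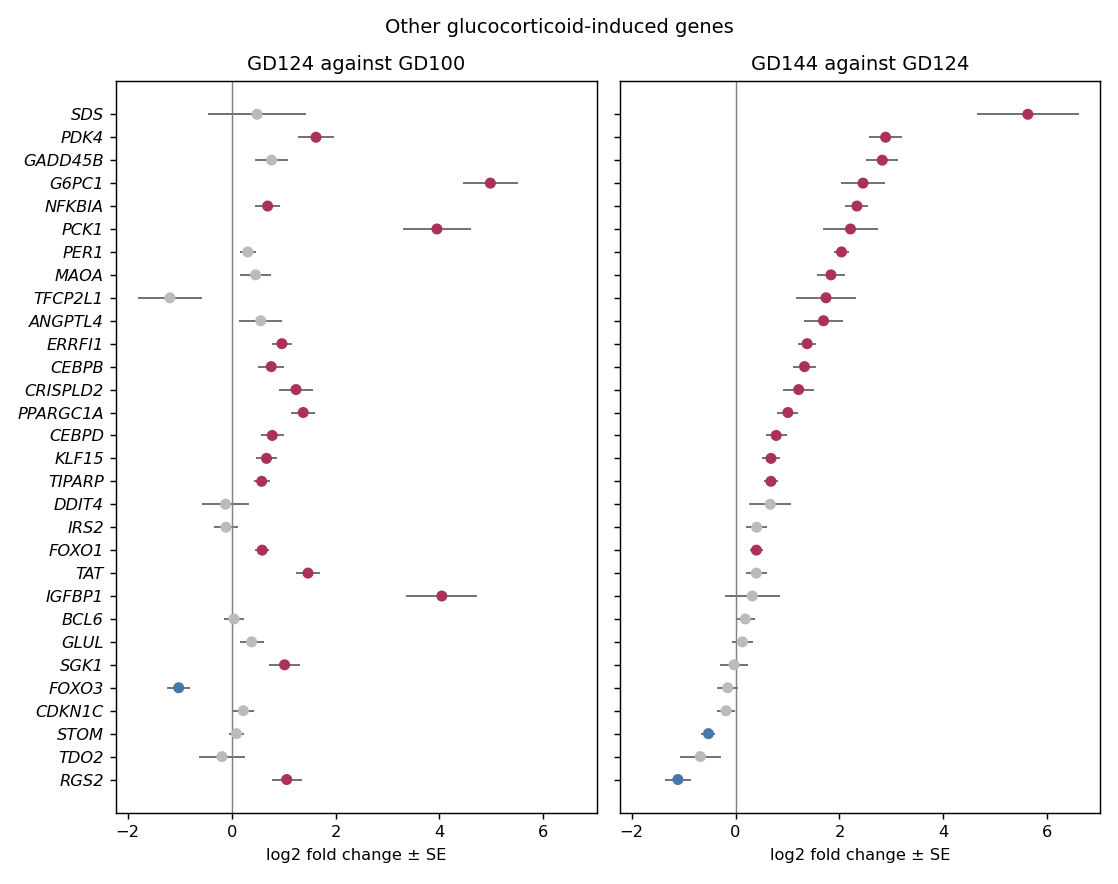
Log2 fold change ± SE of 30 other glucocorticoid-induced genes at GD124 against GD100 (left) and GD144 against GD124 (right), sorted by the later change; red is called higher, blue called lower and grey not called. The early rises were largest in G6PC1 and IGFBP1 (4.98 and 4.04), and the late ones in SDS and PDK4 (5.62 and 2.89).

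Supply of HSD11B1 and clearance of cortisol were read from 11 genes. Of these, 3 rose and 1 fell at GD124 against GD100, beside 16.6% and 17.4% of all genes. At GD144 against GD124, 6 rose and 1 fell, beside 12.1% and 15.4% of all genes. H6PD, which feeds NADPH to HSD11B1, rose early, to 246 ± 52.5 CPM at GD124, against 122 ± 47.4 CPM at GD100 (SD, n = 5 and 4; log2 1.005 ± 0.23, edgeR adjusted p = 0.00333). It stood at 248 ± 6.43 CPM at GD144, a log2 change of 0.01 from GD124 (edgeR adjusted p = 0.973). SLC37A4, the transporter that brings the substrate of H6PD into the endoplasmic reticulum, rose in both intervals. It stood at 22 ± 7.87 CPM at GD100, 37.9 ± 6.79 CPM at GD124 and 315 ± 80.5 CPM at GD144 (SD, n = 4, 5 and 6), and its later change (log2 3.05 ± 0.23, edgeR adjusted p = 4.84e-07) exceeded its earlier one (log2 0.79 ± 0.24, edgeR adjusted p = 0.0179) by 2.27 ± 0.40 (edgeR adjusted p = 0.00715). SLC37A4 overlaps TRAPPC4 in the annotation. HSD3B7, a hydroxysteroid dehydrogenase of bile acid synthesis, rose by 0.96 ± 0.19 at GD124 against GD100 and by 1.05 ± 0.17 at GD144 against GD124 on the log2 scale (edgeR adjusted p = 0.00162 and 0.000328). PGD, which makes NADPH in the cytosol, fell at GD144 against GD124 (log2 -0.81 ± 0.19, edgeR adjusted p = 0.00557). The cortisol-reducing enzyme genes AKR1D1 (log2 1.09 ± 0.27, edgeR adjusted p = 0.00632) and SRD5A2 (log2 1.48 ± 0.48, edgeR adjusted p = 0.0336) rose at GD144 against GD124, both picked after their values were seen. CYP3A24, a cytochrome that can share reads with near-identical family members and overlaps LOC121817857, averaged 13.4 ± 8.2 CPM at GD144 and 2.2 ± 2.07 CPM at GD124 (SD, n = 6 and 5; log2 2.60 ± 0.63, edgeR adjusted p = 0.00712).

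Of 24 chaperones and coregulators of the receptor 2 rose and 4 fell at GD124 against GD100, and 1 rose and 0 fell at GD144 against GD124, with median log2 changes of -0.14 and 0.0043. Over the span 4 rose and 5 fell. Of all genes 34%, 27.5% and 55% were called in these comparisons. ST13, a co-chaperone of HSP70, rose at GD124 against GD100 (log2 0.72 ± 0.13, edgeR adjusted p = 0.000931), as did the coactivator gene NCOA1 (log2 0.39 ± 0.15, edgeR adjusted p = 0.0491). CARM1, an arginine methyltransferase that acts as a coactivator, and PPP5C, a phosphatase bound to HSP90, fell (log2 -0.92 ± 0.16 and -0.82 ± 0.16, edgeR adjusted p = 0.000747 and 0.00125). NRIP1, a corepressor of nuclear receptors, was the 1 that rose late, to 23.2 ± 3.38 CPM at GD144, against 12.7 ± 1.49 CPM at GD124 (SD, n = 6 and 5; log2 0.86 ± 0.13, edgeR adjusted p = 0.000143). HSP90AA1, an HSP90 gene, was lower at GD144 than at GD100 (log2 -0.85 ± 0.23, edgeR adjusted p = 0.00462).

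Across all 15 libraries, the genes most like each of these were sought among 9001 genes of at least 10 CPM in 1 stage or more, by the Pearson r of log2 CPM; the libraries fall into stages, so r takes in the shared order of stages. HSD11B1 was most like RAB43 (r = 0.985) and PDXK (r = 0.985), and NR3C1 was most like PRXL2C (r = 0.976) and DNAJB12 (r = 0.974). ZBTB16 was most like CDC42EP4 (r = 0.971) and then SLC37A4 (r = 0.963). CES3, a carboxylesterase gene, came first for both KLF9 (r = 0.983) and TSC22D3 (r = 0.983), followed by EXT1 for KLF9 (r = 0.982) and PDK4 for TSC22D3 (r = 0.976). DUSP1 was most like GADD45B (r = 0.9748) and TP53INP1 (r = 0.969). NR3C2 reached only r = 0.869 with SNX12 and 0.865 with TMLHE. FKBP5 was most like CENPU (r = 0.906) and GRB10 (r = 0.895), both of which were lowest at GD124, and its r with the other 7 tested genes of its own group lay between -0.27 and 0.30.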

How the data were processed

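Poly(A) RNA libraries of fetal sheep liver were compared between 3 gestational stages. The deposited table holds estimated counts per gene, not normalized, in 15 columns, each matched to 1 library; DRAGEN is named in the submitters' processing notes. No version, build, annotation or strand setting of that processing is given in the sources read. Of the values 6.549% were fractional and were rounded. Names were matched to RefSeq symbols of assembly ARS-UI_Ramb_v3.0 (28863 of 31411), which also served to find overlapping genes; no coordinates or sequences are given.

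All genes were tested with the quasi-likelihood test of edgeR 4.0.16 (R 4.3.3; TMM factors, filterByExpr, robust fit, a term per stage), which left 16977 genes, with Benjamini-Hochberg adjustment over all of them within each comparison and a threshold of 0.05. The difference of both intervals was a contrast of the same fit. The standard error is the size of the log2 fold change divided by the square root of F. The procedure was tested on simulated data. Pairs of replicates differed by at least 43.72 chi-square per degree of freedom.

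Genes named are the 10 chosen, up to 2 called rises and 2 called falls per list and comparison (10 CPM or more in the higher stage), the 2 most alike genes for each, and those said to be picked later. For 1 gene named this way no values are reported here. The genes, lists and tests were chosen with earlier results of these data known. Alternatives were other scalings and filters, DESeq2 1.42.0, leaving out libraries, and a replicate term. Markers of macrophages, endothelium, stellate cells, bile duct and white blood cells were also summed.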

Additional observations from a re-analysis of the deposited data

Results flagged for a closer look

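Single libraries stood far from the rest of their stage in 3 of 27 combinations of gene and stage; chance alone gives about 1 in 20. NR3C2 was at 3.56 CPM in GD144 replicate 6, against 0.951 to 1.8 CPM in the other GD144 libraries, and came from 103 counts. HSD11B2 was at 0.379 CPM in GD124 replicate 1, from 12 counts, where the other GD124 libraries had 0 to 2 counts. FKBP5 was at 122 CPM in GD144 replicate 4, against 26.2 to 48.4 CPM in the other GD144 libraries. Changes differed between the intervals for ZBTB16, by 4.10 on the log2 scale, and for KLF9, by 1.94.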

How the results depend on the processing

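Under the alternatives, 739 values of single genes kept direction and side of the threshold, 45 lost the call, 17 gained it and 23 changed sign; the cause was not tested. In the later interval NR3C1, HSD11B1, ZBTB16, KLF9, TSC22D3 and DUSP1 stayed called in every alternative run. Leaving out single libraries gave 4 to 7 of these genes called at GD124 against GD100 (4 without GD100 replicate 3 or GD124 replicate 1), beside 4169 to 6234 of all genes. At GD144 against GD124 it gave 6 to 7, beside 3724 to 5051 of all genes. Over the span it gave 7, beside 8546 to 9321 of all genes. For the difference of intervals it gave 1 to 4, beside 379 to 1743 of all genes, against 1002 with all libraries. In those fits log2 changes that crossed 0 were not called: -0.083 to 0.31 for ZBTB16 early, -0.11 to 0.50 for NR3C2 late, -0.57 to 0.19 for FKBP5 over the span and -0.22 to 0.056 for the NR3C1 difference. With GD100 reduced to replicate 1, a lone library assumed to vary like the others, 1 of these genes (TSC22D3) and 3167 of all genes were called early, with ZBTB16 at -0.46, FKBP5 over the span at 0.63 and the NR3C1 difference at 0.15. Total counts alone put the median of all genes at -0.163 early and its difference at 0.216, ZBTB16 early at -0.11 and the NR3C1 difference at 0.18, and made 30.9% of early, 54.1% of late and 66.9% of difference calls higher, where TMM gave 48.9%, 43.9% and 36.4%. DESeq2 called 4 differences (1816 over all genes). Scaling to the hepatocyte markers, added after the data were seen, put the median of all genes at -1.45 early, 0.247 late, -1.17 over the span and 1.68 for the difference. All genes called were then 13287, 2881 and 10803 early, late and for the difference. Of the early calls over all genes 0.557% were higher. Of the cortisol genes 4 were called early (NR3C1, ZBTB16, DUSP1 and FKBP5), each of them lower, and 7 for the difference. In that scaling early changes were -0.84 for NR3C1, -1.43 for ZBTB16, -0.14 for KLF9, -0.29 for TSC22D3 and -0.88 for DUSP1, NR3C1 over the span was at -0.076, and the differences of NR3C1 and NR3C2 were 1.60 and 0.031. Replicate numbers do not pair the libraries: same-numbered libraries had deviations correlated at -0.155 to 0.144, and 3 of 26 correlated best with their own number. The replicate block called 5, 6, 7 and 2 of these genes early, late, over the span and for the difference, where it called 4544, 3306, 8259 and 325 of all genes. It called 1 of the other induced genes higher for the difference and put NR3C2 at -0.0051 late. Counts near the floor limit NR3C2 and HSD11B2.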

Other observations

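Genes of adrenal cortisol synthesis were mostly near 0 in these livers, with 1 exception, and were picked after their values were seen. MC2R, the receptor for the pituitary hormone ACTH, had 0 counts in every library, and CYP11B1, which completes cortisol synthesis, had 6 counts in 1 GD100 library and 0 in the rest. CYP17A1, the 17-hydroxylase gene, had 356 to 1129 counts at GD144, and its level averaged 22.9 ± 10.6 CPM at GD144 and 13.3 ± 6.25 CPM at GD124 (SD, n = 6 and 5), with a log2 change of 0.79 that was not called. MRAP, an accessory protein of the ACTH receptor, was called higher at GD144 than at GD124, at 0.581 ± 0.3 and 0.0324 ± 0.0565 CPM (SD, n = 6 and 5), near the floor, and overlaps URB1 in the annotation.

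Of the immediate early genes, 10 of 27 rose and 1 fell at GD124 against GD100, beside 16.6% and 17.4% of all genes. At GD144 against GD124, 9 rose and 0 fell, beside 12.1% and 15.4% of all genes. FOS rose early (log2 2.11 ± 0.62, edgeR adjusted p = 0.0177), and so did ZFP36, which shortens the life of messenger RNAs (log2 2.47 ± 0.49, edgeR adjusted p = 0.00196). EGR1 rose late (log2 3.48 ± 0.65, edgeR adjusted p = 0.00141), and MYC fell early and rose late (log2 -0.96 ± 0.31 and 2.19 ± 0.30, edgeR adjusted p = 0.0251 and 8.97e-05). Over the span from GD100 to GD144, 17 of the 27 genes were higher and 1 was lower, beside 27.1% and 27.9% of all genes. NR4A1 was the 1 that was lower (log2 -1.72 ± 0.43, edgeR adjusted p = 0.00308). Of other cell markers at GD124 against GD100, 7 of 13 macrophage, 5 of 14 endothelial, 4 of 15 stellate and 4 of 11 bile duct genes were higher and 1, 1, 0 and 0 were lower. At GD144 against GD124, 3 of 13 macrophage, 10 of 14 endothelial, 8 of 15 stellate and 1 of 11 bile duct genes were higher and 0 were lower. Of all genes 16.6% were higher and 17.4% lower early, and 12.1% were higher and 15.4% lower late. Of 12 lymphocyte and granulocyte genes 3 were lower early and 4 late, with 0 higher in either interval. Their part in the changes of the cortisol genes was not tested.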
